A study of Homo sapiens with 4 samples.

Results

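The genes described are 6 subunits of the GABA-A receptor (GABRA2, GABRA3, GABRA5, GABRB1, GABRB2 and GABRG3) and 2 chloride transporters (SLC12A2 and SLC12A5), chosen by name out of 28307 gene symbols. All 8 were found, each on 1 row in the library where rows were counted (CRISPRi replicate 1), and all 8 passed the filter on low counts. The libraries are bulk polyA RNA sequencing of excitatory neurons of the i3N system, made from the human iPSC (induced pluripotent stem cell) line WTC11. Both groups carry dCas9-KRAB, a nuclease-dead Cas9 joined to a repressor domain, driven by a CAG promoter from an intron of CLYBL. The CRISPRi group (2 libraries) received lentiviral guide RNAs against 1 transposable element of the MIR family on chromosome 11, and the control group (2 libraries) received the empty guide vector. For the CRISPRi group, 2 guides per element are given. In both groups, neurons were transduced 2 weeks into differentiation at a multiplicity of infection of 3. They were selected for 4 days with 0.5 μg/mL puromycin and collected at 7 days. The neurons are from 1 cell line, and the sources used here do not say which guide each library received.

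GABA-A receptors are pentameric chloride channels, their subunits most often drawn from the alpha, beta and gamma families, that open when GABA binds between an alpha and a beta subunit. Whether the open channel lets chloride in or out depends on the chloride gradient, which is set largely by the product of SLC12A2, NKCC1, a sodium-potassium-chloride cotransporter that loads chloride, and the product of SLC12A5, KCC2, a neuronal potassium-chloride cotransporter that exports it. In the developing brain, SLC12A2 is prominent early and SLC12A5 rises as neurons mature, and the alpha-2, alpha-3 and alpha-5 subunits are prominent there.

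Control replicate 1 stood apart and touches every comparison. It held 944993 gene counts, against 39325038 to 44839748 in the other 3 libraries, so that 1 count there equals 1.06 CPM (gene counts scaled to a common library total). The 10 listed markers of dividing cells all had counts in every library and summed to 401 CPM in it, against 60.3 to 65.4 CPM in the others. The 5 listed epithelial markers summed to 15.9 CPM in it, from KRT8 (9 counts) and KRT18 (6 counts), against 2.34 to 3.34 CPM in the others. The labelled cell type was checked against markers: the vesicular glutamate transporters SLC17A7 and SLC17A6 were at 302 to 362 CPM and 145 to 162 CPM, and the neuronal tubulin TUBB3 at 2259 to 2590.0 CPM. The 5 listed glutamatergic markers summed to 476 to 538 CPM. Among them GRIN1 was at 11.6 to 15.9 CPM, GRIA2 at 9.95 to 14.8 CPM, and SLC17A8 had 0 to 11 counts. The 5 listed neural progenitor markers summed to 748 to 874 CPM, mostly from NES at 731 to 864 CPM. Of the enzymes that make GABA, GAD1 had 7 to 18 counts and GAD2 4 to 12 counts in the 3 deep libraries. Control replicate 1 had 0 of either, where the mean level of the deep libraries would give 0.314 and 0.162 counts. The 10 listed GABAergic markers summed to 104 to 142 CPM, mostly from the peptide gene SST at 86.8 to 134 CPM, and 2 of them (DLX5 and VIP) had 0 counts in every library. Control replicate 1 stood apart in DLX2 and DLX1, transcription factors of GABAergic precursors, with 8 and 4 counts (8.47 and 4.23 CPM), against 0.153 to 0.361 and 0.0446 to 0.229 CPM in the deep libraries. The part of these markers in the results below was not tested. In bulk RNA, fewer cells of a type and less RNA per cell cannot be told apart.

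The sequences upstream of the transporter pair are shown because the balance of these 2 genes is described below. RefSeq promoter windows (GRCh38.p14) matched 6 of the 8 genes, leaving GABRA3 and GABRA5. Each sequence is the 250 bases before the annotated start, and capitals mark CAGATG, an E-box of the kind bound by proneural bHLH factors, searched on both strands. The SLC12A2 window is chr5:128083516-128083765 and the SLC12A5 window is chr20:46021436-46021685, both on the plus strand.
SLC12A2: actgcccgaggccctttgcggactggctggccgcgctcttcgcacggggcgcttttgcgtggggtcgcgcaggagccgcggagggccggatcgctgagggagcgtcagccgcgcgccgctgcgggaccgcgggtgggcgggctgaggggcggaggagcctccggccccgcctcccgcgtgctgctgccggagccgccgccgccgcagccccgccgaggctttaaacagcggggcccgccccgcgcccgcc
SLC12A5: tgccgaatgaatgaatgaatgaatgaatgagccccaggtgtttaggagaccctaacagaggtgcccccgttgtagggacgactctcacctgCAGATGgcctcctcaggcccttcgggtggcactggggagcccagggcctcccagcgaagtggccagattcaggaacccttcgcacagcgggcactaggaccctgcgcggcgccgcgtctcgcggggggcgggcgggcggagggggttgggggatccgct
The SLC12A2 window held 40 CpG dinucleotides, more than 97.8% of the 35116 windows in the table, and that of SLC12A5 held 18 (63.2%). The median over all windows was 11. CAGATG occurred once upstream of SLC12A5 and not in the SLC12A2 window, and 12.2% of all windows held it on either strand. It was also found in windows of SLC12A4, SLC12A8 and GABRR1. A second motif searched, GCGGGGGCG, occurred in neither transporter window and in 4.72% of all windows. Among the subunits described here, the windows held 20 CpG dinucleotides for GABRG3, 8 for GABRB1, 11 for GABRB2, and 23, 10 and 6 for the 3 annotated starts of GABRA2. None of these held CAGATG. The GABRB2 window (161546726 to 161546975) lies before an internal start, within the gene span given below. The GABRB1 window (47031317 to 47031566) also lies before an internal start by RefSeq, where the gene begins at 46993647. These counts describe the windows only.

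Levels of different genes were compared on a deposited value without a header, taken as FPKM (fragment counts scaled to transcript length and library depth). GABRA3 was the highest of the 8 at 30.1 to 31.6 FPKM in the 3 deep libraries and 27.8 FPKM in control replicate 1. SLC12A2 followed at 5.60 to 5.86 FPKM and SLC12A5 at 3.70 to 4.16 FPKM, then GABRA5 (1.36 to 1.70 FPKM) and GABRA2 (0.826 to 0.906 FPKM). GABRB1 (0.504 to 0.726 FPKM) and GABRG3 (0.386 to 0.542 FPKM) overlapped in range, and GABRB2 was lowest at 0.0302 to 0.0590 FPKM. The order of GABRA5 and GABRA2 rests on the length used. Per kilobase of the longest coding GENCODE transcript their ranges overlapped (1.13 to 1.44 and 1.22 to 1.27 CPM per kilobase), and GABRB1 and GABRG3 no longer did.

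**Figure D1:**
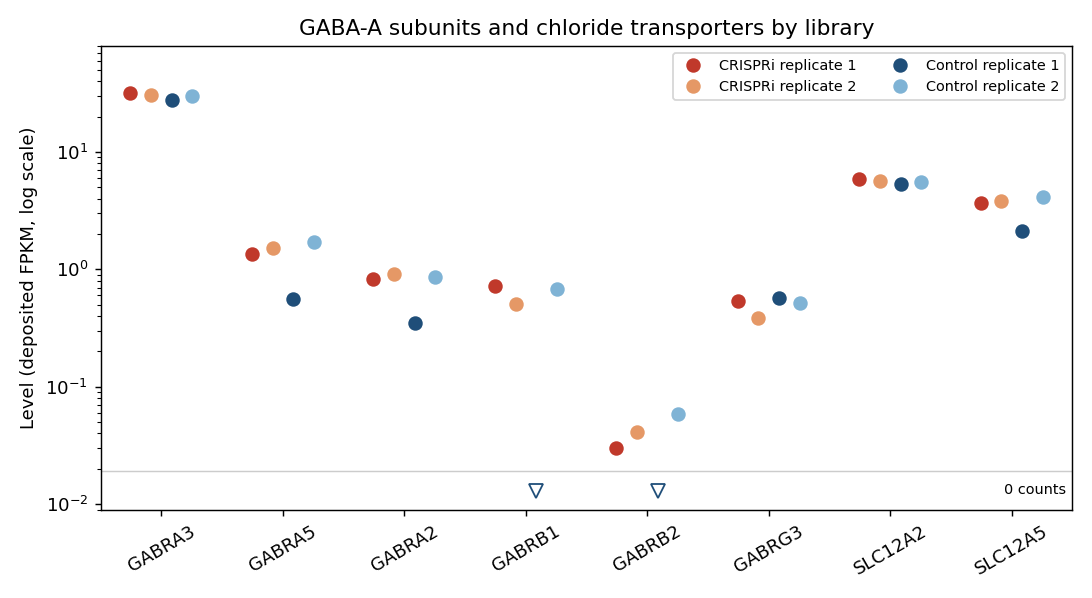
Level of each gene in each library (deposited FPKM, log axis); each point is 1 library and open triangles mark 0 counts. GABRA3 lies above the other 7 genes in all 4 libraries, and control replicate 1 is the lowest point for 7 of the 8.

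Of the 3 alpha subunits described, GABRA3 was by far the highest. It encodes the alpha-3 subunit and lies on chromosome X (hg38, 152166234 to 152451315, minus strand). Counts were 5332 and 4789 in the CRISPRi libraries (replicates 1 and 2), 99 in control replicate 1 and 4453 in control replicate 2, the order used for every gene below. Scaled to depth these were 119, 115, 105 and 113 CPM. The CRISPRi libraries were the 2 highest, with control replicate 2 close below. The log2 fold change, CRISPRi over control, was 0.10 with a 95% confidence interval of -0.10 to 0.29 (edgeR adjusted p = 1), which as a fold runs from 0.935 to 1.22. Of the summed FPKM of GABRA2, GABRA3 and GABRA5, it made up 93.1% ± 0.609 in CRISPRi neurons and 94.5% ± 3.32 in controls (mean ± SD, n = 2 each). In the deep libraries it was at 17.7 to 23.3 times the FPKM of GABRA5 and 33.9 to 38.3 times that of GABRA2. The size of these ratios rests on the length used. Per kilobase of the longest coding GENCODE transcript, the share of GABRA3 was 91.8% to 97.0% over the libraries.

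**Figure D2:**
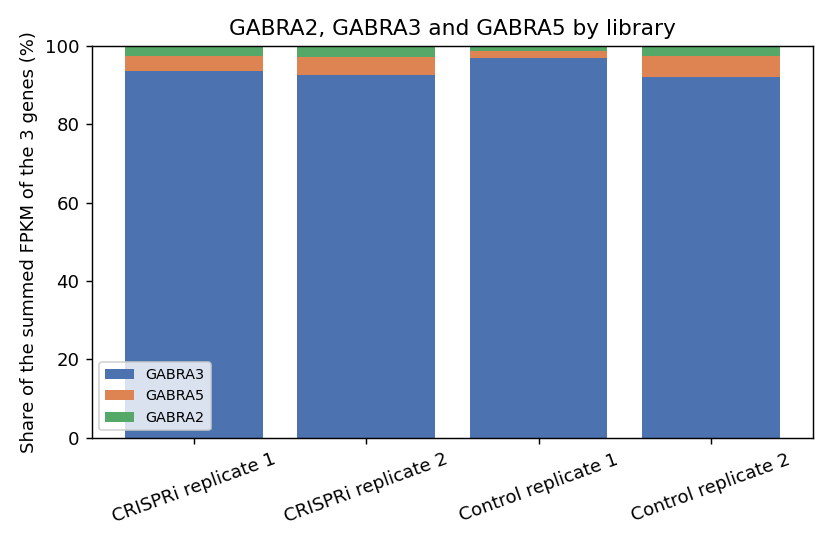
Share of GABRA2, GABRA3 and GABRA5 in their summed deposited FPKM (percent), 1 bar per library. GABRA3 fills 92.1% to 96.8% of each bar. On this scale GABRA5 is larger than GABRA2 in all 4 libraries, an order that rests on the length used.

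GABRA5 and GABRA2 were much lower. GABRA5 encodes alpha-5, a subunit known for extrasynaptic receptors (chromosome 15, 26867062 to 26949210, plus strand). The CRISPRi libraries had 164 and 170 counts and the controls 1 and 184, or 3.66, 4.09, 1.06 and 4.68 CPM. Control replicate 1 was lowest and control replicate 2 highest, so the groups overlapped. GABRA2 encodes alpha-2, a synaptic subunit (chromosome 4, 46243548 to 46390300, minus strand). The CRISPRi libraries had 319 and 295 counts and the controls 3 and 290, or 7.11, 7.10, 3.17 and 7.37 CPM. The 3 deep libraries lay close together, and the single low value again was that of control replicate 1, whose 3 counts carry an exact Poisson interval of 0.619 to 8.77 counts. At the mean level of the deep libraries 6.80 counts would be found there. The log2 fold changes were -0.05 for GABRA5 (interval -1.12 to 1.02) and 0.11 for GABRA2 (interval -0.63 to 0.84). Without control replicate 1 they were -0.27 and -0.05, and with control replicate 1 as the only control 1.90 and 1.19. None of these passed (edgeR adjusted p from 0.33 to 1).

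GABRA4 and GABRA6, which encode alpha-4 and alpha-6, had 0 counts in every library. A count of 0 allows up to 3 counts (one-sided 95% limit), which is 0.0669 to 0.0763 CPM in the deep libraries and 3.17 CPM in control replicate 1 (counting error only).

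Both beta subunits described here were low. GABRB1 encodes beta-1 (chromosome 4, 47031567 to 47426430, plus strand) and its counts were 64 and 41 under CRISPRi and 0 and 52 in the controls, or 1.43, 0.987, 0 and 1.32 CPM. GABRB2, which encodes beta-2, a subunit widespread in the adult brain (chromosome 5, 161288429 to 161548404, minus strand), was counted 10 and 13 times under CRISPRi and 0 and 18 times in the controls. The deep libraries put it at 0.223, 0.313 and 0.458 CPM, the highest being control replicate 2. At these levels 1.18 counts of GABRB1 and 0.313 counts of GABRB2 would be found in control replicate 1, both under the 3 that a count of 0 allows. The log2 fold change of GABRB1 was 0.06 (interval -1.5 to 1.63) and that of GABRB2 was -0.66 (interval -2.23 to 0.90), both with an edgeR adjusted p of 1. The interval of GABRB1 did not exclude a change of 2-fold in either direction, and that of GABRB2 did not exclude a level 2-fold lower in CRISPRi.

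GABRG3 encodes gamma-3, of the family that ties receptors to synapses and forms the benzodiazepine site with an alpha subunit (chromosome 15, 26971181 to 27541983, plus strand). The CRISPRi libraries had 213 and 178 counts and the controls 6 and 192, or 4.75, 4.28, 6.35 and 4.88 CPM. In CPM both controls lay above both CRISPRi libraries, control replicate 2 only just. By deposited FPKM, CRISPRi replicate 1 (0.542) lay above control replicate 2 (0.522). The 6 counts of control replicate 1 carry an interval of 2.20 to 13.1 counts. The log2 fold change was -0.18 (interval -0.92 to 0.55, edgeR adjusted p = 1), and it was -0.11 without control replicate 1. GABRG1 had 0 counts in every library.

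Most GABA-A subunit genes lie in clusters, and members of the same cluster differed in level. GABRA2 and GABRB1 lie in the chromosome 4 cluster with GABRG1 and GABRA4, which had 0 counts. GABRB2 lies in the chromosome 5 cluster with GABRA6 (0 counts). GABRA5 and GABRG3 are neighbours on chromosome 15, with 21971 bp from the end of GABRA5 to the start of GABRG3. GABRA3 shares its region of chromosome X with GABRE (0 to 7 counts) and GABRQ (0 to 47 counts).

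Relative to its mean, SLC12A2 varied least of the 8 genes, with a coefficient of variation of 3.09% of CPM over the 4 libraries, and GABRA3 came next at 5.3%. This order cannot separate steady levels from counting error in control replicate 1. There the exact Poisson interval of SLC12A2 was 26.7 to 52.7 CPM, wider than its range over the 4 libraries. GABRA2, with 3 counts there, had a coefficient of 32.5%. SLC12A2 lies on chromosome 5 (128083766 to 128189677, plus strand) and had 1840 and 1656 counts under CRISPRi, and 36 and 1544 in the controls. These were 41.0, 39.8, 38.1 and 39.3 CPM. The CRISPRi libraries were the 2 highest, though the nearest control differed by less than the SD within either group (0.841 and 0.825 CPM). The log2 fold change was 0.06 (interval -0.17 to 0.30, edgeR adjusted p = 1), a fold of 0.89 to 1.23.

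SLC12A5 lies on chromosome 20 (46021686 to 46060150, plus strand) and had 1025 and 991 counts under CRISPRi, and 12 and 1013 in the controls. These were 22.9, 23.8, 12.7 and 25.8 CPM. Control replicate 2 was highest and control replicate 1 lowest, so that the CRISPRi libraries lay between the controls. The 12 counts of control replicate 1 carry an exact Poisson interval of 6.20 to 21.0 counts, just under the 22.8 counts that the mean of the deep libraries gives at that depth. The log2 fold change was 0.03 (interval -0.54 to 0.60, edgeR adjusted p = 1). It was -0.14 without control replicate 1 (edgeR adjusted p = 0.98) and 0.91 without control replicate 2 (edgeR adjusted p = 0.114). An antisense gene, SLC12A5-AS1, overlaps its first 388 bp and was counted 91 to 107 times in the deep libraries, and without a stated strand setting reads there cannot be assigned to either gene.

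The balance of the pair was taken as the ratio of SLC12A5 to SLC12A2 counts per length (6166 and 6885 nucleotides). It was below 1 in all 4 libraries, at 0.622 and 0.668 under CRISPRi and 0.372 and 0.733 in the controls, so SLC12A2 transcripts were 1.37 to 2.69 times as abundant. The exact (Clopper-Pearson) 95% intervals were 0.576 to 0.672, 0.617 to 0.723, 0.176 to 0.732 and 0.676 to 0.794 in the same order. No interval reached 1, and all cover counting error only. By deposited FPKM the ratios were 0.631, 0.677, 0.398 and 0.744.

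Between groups the balance did not differ beyond the spread of the controls. Its log2 value was -0.633 ± 0.0731 in CRISPRi and -0.937 ± 0.691 in controls (mean ± SD, n = 2 each), a difference of 0.304 (two-sided exact permutation p = 1, where 2 libraries against 2 cannot give less than 0.333). The sign rests on the shallow library: without control replicate 1 the difference was -0.184, and with counts summed over each group, which gives that library little weight, it was -0.17. With control replicate 1 as the only control it was 0.793.

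**Figure D3:**
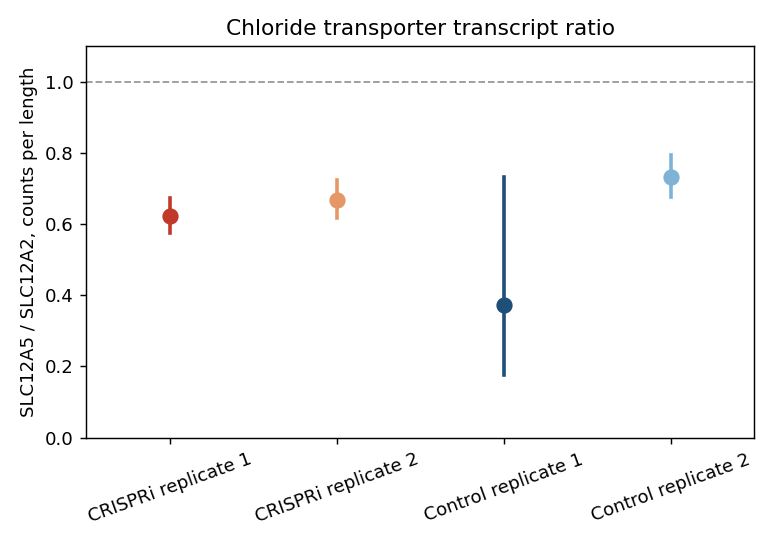
Ratio of SLC12A5 to SLC12A2 counts per length in each library, with exact 95% counting intervals as bars; the dashed line marks equal levels. All 4 libraries lie below 1, and control replicate 1 has the widest interval (0.176 to 0.732).

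Over the 8 genes, edgeR called 0 as changed, where 0.0255% of the 15708 tested genes were called (4 genes, all lower in CRISPRi). None of the 8 had an unadjusted p under 0.05, and DESeq2 and limma-voom also called 0, though DESeq2 gave GABRB2 no adjusted p. The median log2 fold change was 0.05 over the 8 and 0.01 over all tested genes. In CPM the groups did not overlap for 3 of the 8 (GABRA3 and SLC12A2 higher in CRISPRi, GABRG3 lower). That share is close to the 34.3% of all tested genes whose groups did not overlap. The 95% interval excluded a change of 2-fold in either direction for 5 genes (GABRA2, GABRA3, GABRG3, SLC12A2 and SLC12A5) and of 1.5-fold for 2 (GABRA3 and SLC12A2). Few of the control counts behind these intervals come from control replicate 1. With that library as the only control, the log2 fold changes of the 5 were 1.19, 0.19, -0.46, 0.116 and 0.909, in the same order. That of GABRA2 was past 2-fold.

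**Figure D4:**
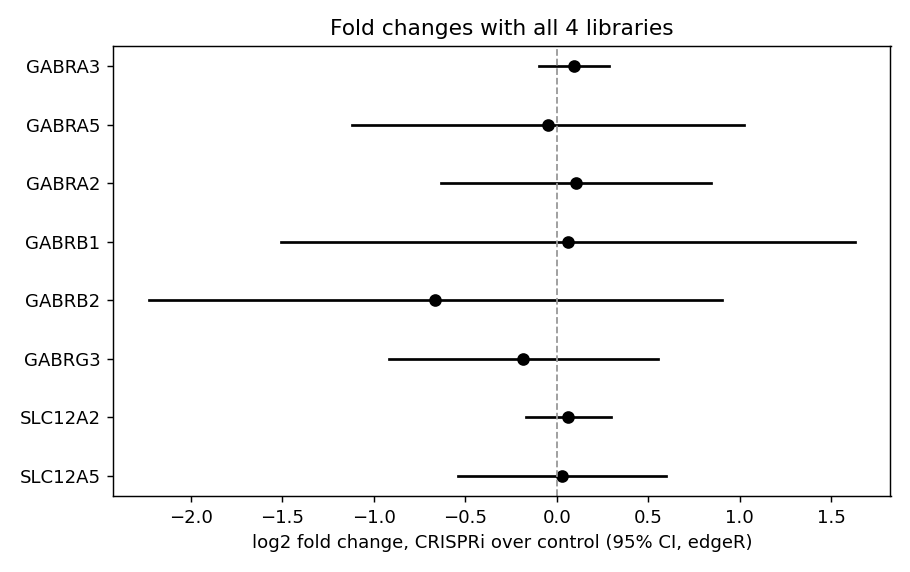
Log2 fold change of CRISPRi over control with 95% confidence intervals from edgeR on all 4 libraries; each point is 1 of the 8 genes. Every interval includes 0, and those of GABRA3 and SLC12A2 are the narrowest.

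The counts of the deep libraries drawn down to the total of control replicate 1 show what that depth can hold. GABRA3 then had 100, 115 and 101 counts in CRISPRi replicates 1 and 2 and control replicate 2, beside 99 in control replicate 1. SLC12A2 had 46, 39 and 43 beside 36, and SLC12A5 had 16, 23 and 21 beside 12. GABRB2 fell to 0 counts in all 3, GABRA5 had 3 to 6 counts and GABRA2 4 to 5, and 3 of the 8 genes passed the filter.

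The other genes of GABA signalling and chloride transport, 81 in 6 lists, showed no called gene. Of 67 tested, edgeR, DESeq2 and limma-voom called 0, and edgeR gave 0 an unadjusted p under 0.05. DESeq2 gave some genes with few counts no adjusted p, GABRD, GABRR1, SLC6A12 and SLC12A1 among them. Of the 67, 43 (64.2%) had a positive and 24 a negative log2 fold change in edgeR, with a median of 0.04. Over all tested genes, 52.7% were positive and the median was 0.01. Without control replicate 2 edgeR called 6 of 68 (8.82%), all higher in CRISPRi, where 8.58% of all tested genes were called, 3.61% higher and 4.97% lower (CAB39, GABBR2, NTRK2, SLC4A10, SLC4A8 and TRAK2, named because they were the calls).

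Of 10 further GABA-A subunits 5 had a count and 3 were tested (0 called, median -0.11). These were the extrasynaptic delta subunit GABRD (log2 fold change 0.27), which had 14 to 20 counts in the deep libraries, the theta subunit GABRQ (-0.11) and the rho subunit GABRR1 (-0.15), which had 1 to 18 counts. The other rho subunit with a count, GABRR2, had 0 to 2. The 25 genes of receptor assembly, clustering and trafficking were all tested and 0 were called (median 0.04). The scaffold gephyrin, GPHN, was at 62.8 to 64.5 CPM, and LHFPL4, which couples the receptor to neuroligin-2 at inhibitory synapses, at 104 to 110.2 CPM; both were named after their values were seen. The 3 genes ranked first by p had log2 fold changes of 0.13 (GABARAPL2), 0.24 (TRAK2) and 0.09 (GABARAPL1), each with an edgeR adjusted p of 1. GABARAPL2 and GABARAPL1 encode relatives of the receptor-associated protein GABARAP, and TRAK2 encodes a kinesin adaptor. GABARAP was the highest of the list per length at 250.2 ± 0.843 FPKM in CRISPRi and 248.5 ± 2.08 FPKM in controls (mean ± SD, n = 2 each). It was followed by GABARAPL2 and CLPTM1, an endoplasmic reticulum protein that limits receptor trafficking.

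Of 12 genes for GABA synthesis, release, uptake and breakdown 8 were tested (0 called, median 0.07). Log2 fold changes were 0.08 for the GABA transaminase ABAT, 0.14 for the vesicular GABA transporter SLC32A1 and 0.36 for the betaine and GABA transporter SLC6A12, each with an edgeR adjusted p of 1. SLC32A1 was at 6.76, 6.93, 4.23 and 6.66 CPM in the 4 libraries, in the same order. The highest per length were the breakdown enzyme ALDH5A1 (11.4 ± 0.0567 FPKM in CRISPRi and 11.1 ± 0.542 FPKM in controls, mean ± SD, n = 2 each), ABAT and ALDH9A1. Of the metabotropic GABA-B genes all 5 were tested (0 called, median -0.05). Log2 fold changes were 0.18 for KCTD16, 0.15 for GABBR2 and -0.07 for GABBR1, each with an edgeR adjusted p of 1. Both receptor subunits were present, GABBR1 at 524 to 572.5 CPM and GABBR2 at 146 to 190.4 CPM. GABBR2, KCTD12 and KCTD8 were the highest per length, but GABBR1 is listed at an FPKM of 0 despite its counts and has no place in that order.

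Of 6 other cotransporters of the SLC12 family 4 were tested (0 called, median 0.02). SLC12A9 was the highest by FPKM at 6.93 ± 0.314 in CRISPRi and 6.82 ± 0.24 in controls, followed by SLC12A4 (KCC1) at 1.06 ± 0.00686 and 1.12 ± 0.206 FPKM (mean ± SD, n = 2 each). SLC12A7 (KCC4) was at 26.5 to 30.7 CPM but is listed at an FPKM of 0, its only row being on an alternate contig. The kidney transporter SLC12A3 had 0 counts in every library. Log2 fold changes were 0.08 for SLC12A7, 0.03 for SLC12A4 and -0.25 for SLC12A1, the last with 17 to 20 counts in the deep libraries.

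Of 23 transporter regulators 22 were tested (0 called, median 0.07). EGR4, a transcription factor tied to SLC12A5 expression in maturing neurons, had 0 counts in every library. The chloride-proton exchanger CLCN3, ranked first by p, had a log2 fold change of 0.17 (interval -0.01 to 0.34, edgeR adjusted p = 1). Log2 fold changes were 0.22 for CAB39, a partner of the kinases that phosphorylate both transporters, and 0.33 for the auxiliary protein NETO1, both with an edgeR adjusted p of 1. The highest per length were the phosphatase subunit PPP1CA (109 ± 0.392 FPKM in CRISPRi and 109 ± 0.208 FPKM in controls, mean ± SD, n = 2 each), the membrane skeleton protein EPB41L1 and PPP1CC.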

How the data were processed

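Polyadenylated RNA was sequenced as paired 75-base reads in 4 libraries, 2 per group, described in the labels as biologically independent replicates. The deposited data hold a whole-number read count per gene, the unit tested here, and a value used only to compare levels between genes. That value has no header. It was taken as FPKM because the count divided by it scales with transcript length and library total. Per library, 602 to 954 rows hold a count but an FPKM of 0. Per the submitters' processing notes, reads were placed on hg38, and edgeR and limma are among the tools named; for the aligner, the counter and strandedness, the answer is not given in the sources used here. Reads that fit several subunit genes alike could therefore be divided between them in ways that were not checked.

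Counts were summed per symbol over all rows, and CPM scales them to a common library total. The groups were tested with edgeR 4.0.16 (R 4.3.3), using filterByExpr, TMM scaling and the quasi-likelihood F test in its robust form with no covariate, with Benjamini-Hochberg adjustment over 15708 genes and a threshold of 0.05. Intervals of 95% derive from the F statistic. The code was checked on simulated counts. Alternatives were DESeq2 1.42.0, limma-voom (limma 3.58.1), other scalings and filters, a replicate block, each library left out, and thinning to the shallowest total. Control replicate 1 limits precision throughout.

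The genes and lists were chosen with earlier results of these data known. The rule for naming took all 8 genes and, from each list, called genes or otherwise the 3 with the smallest p and the 3 highest per length, and every remaining GABA-A subunit with a count; some genes of the lists are not reported here and were left out of every list count. Promoter windows come from RefSeq on GRCh38.p14. The labels give the replicate numbers no meaning as pairs.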

Additional observations from a re-analysis of the deposited data

How the results depend on the processing

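No alternative called any of the 8 genes, with 3 of them fitted after thinning, 7 under a filter of 1 CPM in 2 libraries and 8 otherwise. DESeq2 gave GABRB2 no adjusted p, so it could not call that gene. List genes called numbered 0 throughout except without control replicate 2 (0 to 6 with a library left out). The transporter balance, 0.304, lay between -0.184 and 0.793 with a library left out and turned to -0.17 with counts summed over each group, a setting chosen after seeing the data; it was 0.304 with the replicate block. The block called 0 of the 8 and 0 list genes, and the correlation of deviations between same-numbered libraries was -0.027. Leaving out a library leaves a single one in its group, whose spread is then taken from the other group, and GABRB1 and GABRB2 have no fold where their only control is at 0.

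Of 88 log2 fold changes of the 8 genes under alternatives, 77 kept their sign and 11 turned, none past the threshold. GABRA5 turned with DESeq2 (0.178), limma-voom (0.108), the replicate block (0.296) and with a library left out (-0.267 to 1.90), and SLC12A5 with limma-voom (-0.0751) and with a library left out (-0.136 to 0.909). Signs also turned with a library left out for GABRA2 (-0.0476 to 1.19) and GABRB1 (-0.123 to 0.506). Of 199 values of the 18 other named genes, 179 kept direction and side of the threshold, 3 gained a call and 17 turned sign: SLC12A7 (-0.0661 to 0.119), SLC6A12 (-0.126 to 0.874, and -0.075 with limma-voom), SLC12A4 (-0.295 to 0.114, -0.0264 with DESeq2 and -0.041 with the block) and GABRQ (-0.292 to 0.0983, 0.273 with DESeq2, 0.203 with limma-voom and 0.182 with the block) with a library left out, GABRD with limma-voom (-0.0481), SLC12A1 with DESeq2 (0.0889), and GABARAPL1 (-0.0768) and KCTD16 (-0.336) after thinning. The cause was not tested. Depth in control replicate 1 limits genes under 3.17 CPM most, but not only those. SLC12A5, at a mean of 24.15 CPM in the deep libraries, had 12 counts there, with a Poisson interval of 6.56 to 22.2 CPM.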
